A study of Mus musculus with 9 samples.

Results

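The matrix-degrading proteases and their inhibitors described here are the 46 genes, of 46078 gene identifiers counted, whose symbols name a matrix metalloprotease (Mmp, 23 genes), an ADAMTS protease (Adamts, 19 genes) or a tissue inhibitor of metalloproteases (Timp, 4 genes). Every gene with such a symbol was included. Their RNA was followed in EGFP-SSC, an established wild-type mouse line of spermatogonial stem cells that carries green fluorescent protein. The 3 libraries at 0 h came from normal culture on mitomycin C-treated mouse embryonic fibroblast feeders, in a medium with glial cell line-derived neurotrophic factor, basic fibroblast growth factor and epidermal growth factor. The 3 libraries at 24 h and the 3 at 48 h came from the same line after mixing with somatic cells of busulfan-exposed testes of mice aged 3 to 7 days. That culture used α-MEM with KSR, BMP-4/7, retinoic acid, activin A, testosterone, FSH and BPE. The time points therefore differ in medium, in the cells beside the line and in time, which cannot be told apart. The labels state that EGFP-positive cells were sorted after 24 and 48 h. They name no sort for 0 h, although the study describes sorted cells at each stage. As all libraries come from 1 line, the 3 biological replicates of a time point measure the spread between cultures of that line.

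Matrix metalloproteases are zinc-dependent enzymes made as inactive precursors that cleave collagens, basement membrane and cell surface proteins, either after secretion or from an anchor in the cell membrane. ADAMTS proteases are secreted, carry thrombospondin-like repeats, and trim procollagens, cleave large proteoglycans such as versican and aggrecan, or act on fibrillin microfibrils. TIMPs bind and block the active sites of most matrix metalloproteases, and TIMP3 also blocks several ADAM and ADAMTS proteases. In the testis, spermatogonia lie on the basement membrane of the seminiferous tubule, which Sertoli cells and peritubular myoid cells build and remodel.

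Counts summed to between 16825251 and 22201892 per library. Levels are given in CPM, counts scaled to a common library size after TMM normalization, and CPM per kb of exon is used wherever the levels of different genes are compared. The summed CPM of 8 germ cell genes lay between 1684 and 2688 at 0 h, 2024 and 2235 at 24 h and 2025 and 2219 at 48 h. Of the 8, 1 passed the test as higher than at 0 h at 24 h, and 1 as lower at 48 h. Lists of somatic cell genes differed between the time points. The summed CPM of 10 fibroblast and stromal genes went from between 275 and 380 at 0 h to between 2212 and 2517 at 24 h and between 2975 and 3219 at 48 h. At 24 h 7 and at 48 h 8 of the 10 passed the test as higher than at 0 h. Col1a1, Col1a2 and Col3a1 held most of these sums, with means of 1119, 701 and 357 CPM at 24 h. For 6 peritubular myoid genes the sums were 13.7 to 15.8, 149 to 207 and 267 to 317 CPM, with 5 of 6 higher and none lower at both later times. The 8 Sertoli genes summed to 18.8 to 19.9, 54.3 to 84.3 and 66.5 to 69.4 CPM, with 6 of 8 higher at both times, and 2 lower at 24 h and 1 at 48 h. The 6 Leydig genes summed to 4.53 to 6.77, 25.2 to 38.5 and 25.6 to 31.9 CPM, with 2 of 3 tested higher at 24 h and 3 of 3 at 48 h. Lhcgr was at the floor of 3 counts per library throughout, and Hsd3b1, Insl3, the Sertoli gene Dhh, the myoid gene Actg2 and the macrophage gene Adgre1 were at the floor at 0 h. The 6 endothelial genes ran the other way, with sums of 43.3 to 48.1, 15.1 to 19.6 and 12.8 to 13.5 CPM, although 2 of 5 tested were higher and 2 lower at each later time, and Emcn was at the floor at 0 h and 48 h. So did the sums of the 6 macrophage genes, with 16.1 to 17.2, 6.93 to 11.8 and 7.58 to 8.26 CPM, with C1qa at the floor at all times and C1qb at 0 h and 48 h, and of 3 tested 2 were higher and 1 lower at 24 h and 1 each at 48 h. In bulk RNA, a change in the number of cells of a type and a change in RNA per cell cannot be told apart, and the part of these lists in the results for the proteases and inhibitors was not tested.

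**Figure D1:**
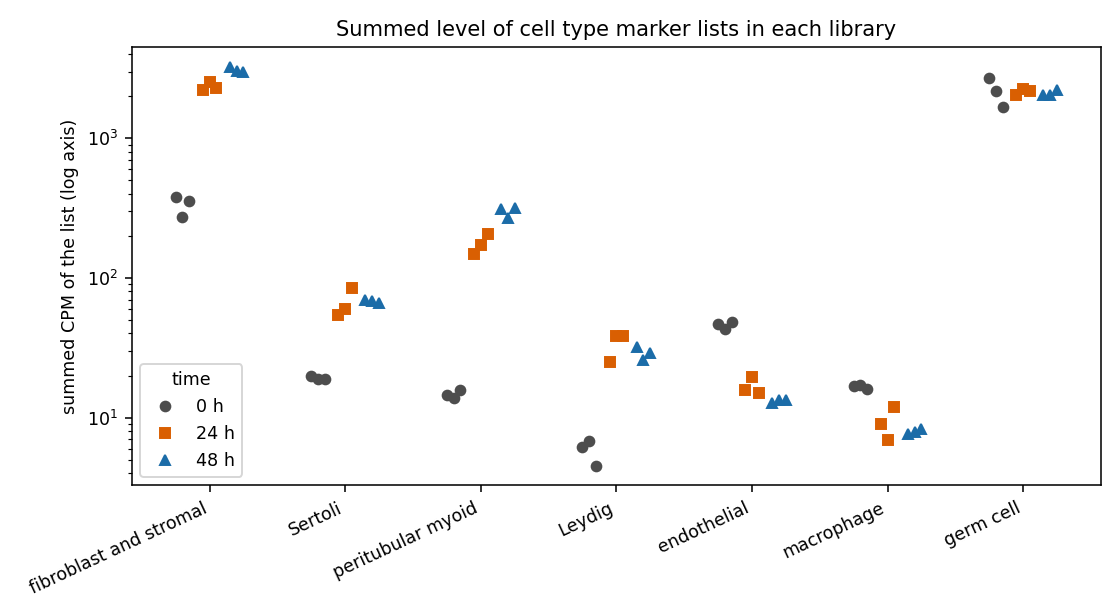
Summed CPM (log axis) of 7 lists of cell type marker genes, with a point for each of the 9 libraries. The fibroblast and stromal, Sertoli, myoid and Leydig sums were higher in every 24 h and 48 h library than in every 0 h library, the endothelial and macrophage sums were lower, and the germ cell sums overlapped.

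Of the 46 genes, 36 had enough counts to be tested between 24 h and 0 h, and 13 were higher and 10 lower at 24 h. Of all 17592 genes tested in that comparison, 25.5% passed the same threshold, 11.4% as higher and 14.2% as lower. Between 48 h and 0 h, 35 of the 46 were tested, 17 were higher and 9 lower, beside 31.6% of all genes (13.0% higher, 18.5% lower). Between 48 h and 24 h, 34 were tested, 13 were higher and 3 lower, beside 21.3% of all genes (8.61% higher, 12.7% lower). The median log2 fold changes of the genes tested were 0.39, 0.46 and 0.34, and those of all genes were 0.01, 0.02 and -0.00. A gene passes the filter on low counts more easily where it is high in 1 group, so these shares describe the genes tested and not all 46. In all, 30 genes passed in at least 1 comparison, 9 of them as higher in all 3 (Mmp2, Mmp16, Mmp23, Adamts1, Adamts2, Adamts5, Adamts12, Adamts14 and Timp2) and 3 as lower in all 3 (Mmp9, Mmp15 and Adamts17). The 3 comparisons share libraries and are not independent of each other.

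**Figure D2:**
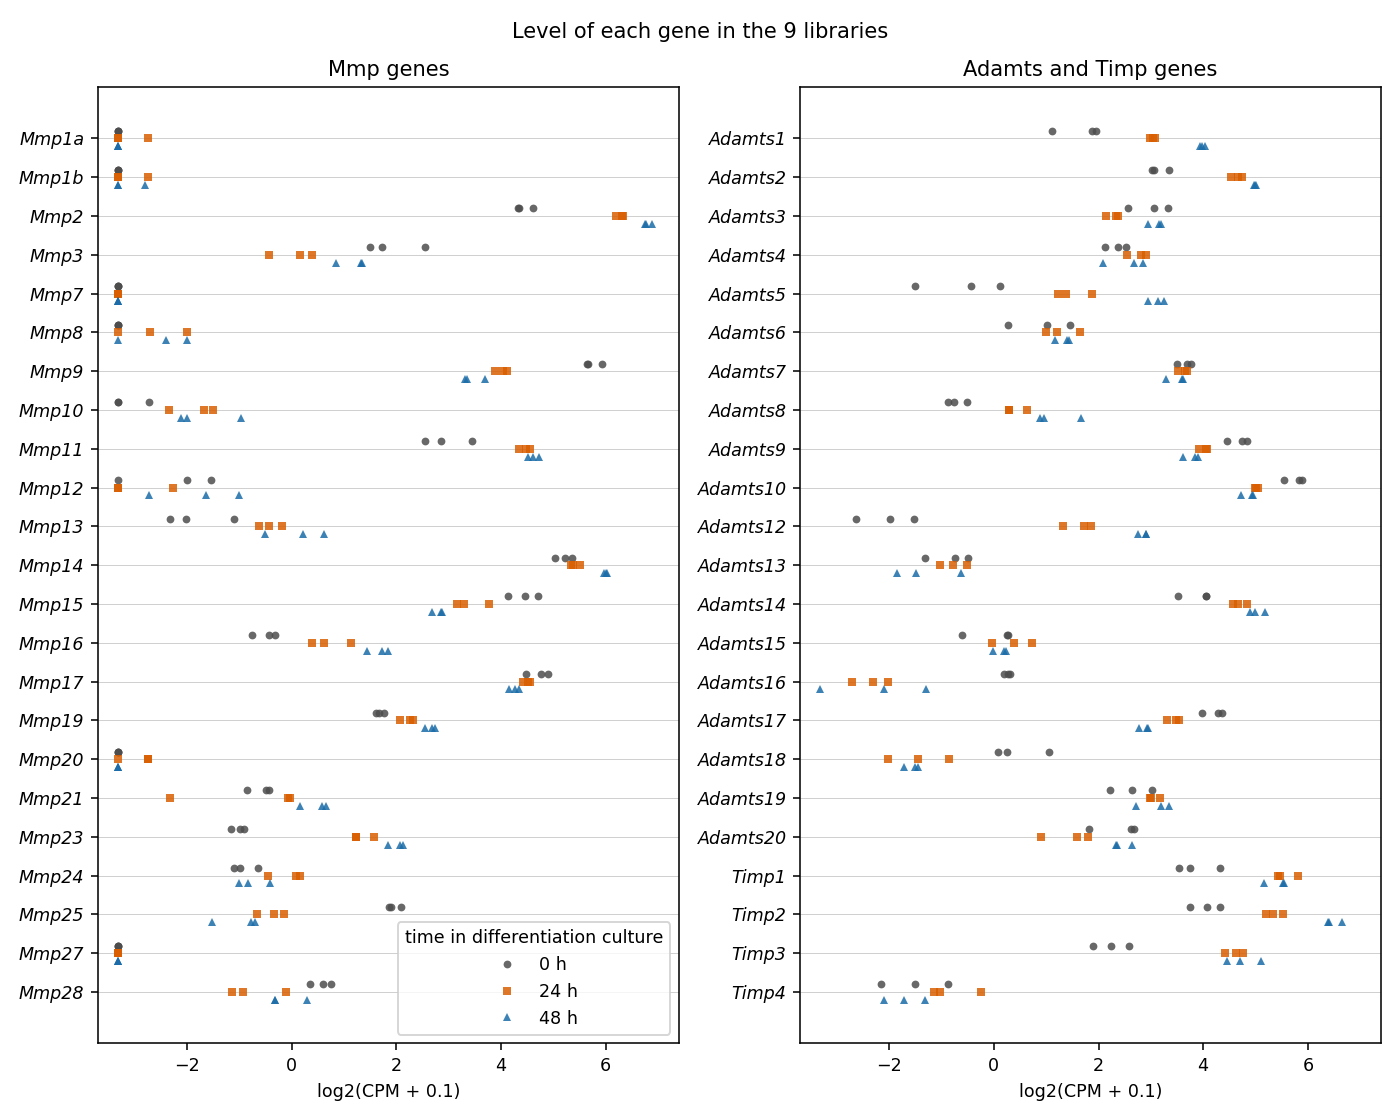
Level of each of the 46 genes as log2(CPM + 0.1), with a point for each library at 0 h (circles), 24 h (squares) and 48 h (triangles). Genes without counts sit at the left edge, the 48 h points of Mmp2 and Timp2 lie to the right of their earlier points, and the 0 h points of Mmp9, Mmp25 and Adamts16 lie to the right of all later points.

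Per kb of exon, Timp1 and Mmp9 were the most abundant of the 46 transcripts at 0 h, at 16.8 ± 5.05 and 15.2 ± 1.78 CPM per kb (mean ± SD, n = 3), and their libraries overlapped. Adamts10 (6.56 ± 0.83), Mmp2 (6.37 ± 0.76) and Mmp14 (6.21 ± 0.73) followed and could not be ordered, as their libraries overlapped too. At 24 h the order was Timp1 (53.9 ± 8.22), Mmp2 (23.0 ± 1.16) and Timp2 (10.5 ± 1.17), each apart from the next, and then Mmp11 (7.92 ± 0.58) and Mmp14 (7.11 ± 0.44), which overlapped. At 48 h Timp1 (48.3 ± 6.92), Mmp2 (33.1 ± 1.57), Timp2 (22.9 ± 2.35), Mmp14 (10.8 ± 0.20), Mmp11 (8.82 ± 0.67) and Adamts14 (6.27 ± 0.63) stood in that order without overlap between neighbours. The rank of Mmp9 was 2 at 0 h, 7 at 24 h and 10 at 48 h. Some of this order turned with the longest transcript as length in place of all exons. Mmp2 (6.98) then stood below Adamts10 (13.1) and Mmp14 (11.4) at 0 h, Mmp14 (13.1) above Timp2 (11.0) at 24 h, and Adamts10 (7.08) above Adamts14 (6.28) at 48 h. Mmp9 then ranked 1, 8 and 10. Summed over each family, the Mmp genes held 43.4 ± 4.57, 52.1 ± 1.23 and 66.4 ± 2.01 CPM per kb at 0, 24 and 48 h. The Adamts genes held 21.5 ± 1.21, 22.0 ± 0.70 and 26.2 ± 0.80. The Timp genes held 21.7 ± 5.58, 67.5 ± 8.41 and 74.6 ± 8.80. The TIMP share of the sum over all 46 genes was thus 24.8 ± 3.36% at 0 h, 47.5 ± 3.06% at 24 h and 44.5 ± 2.84% at 48 h. The 0 h libraries (22.7% to 28.7%) did not overlap the later ones (41.2% to 51.0%). These are sums of RNA and say nothing of the amounts or activity of the proteins.

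**Figure D3:**
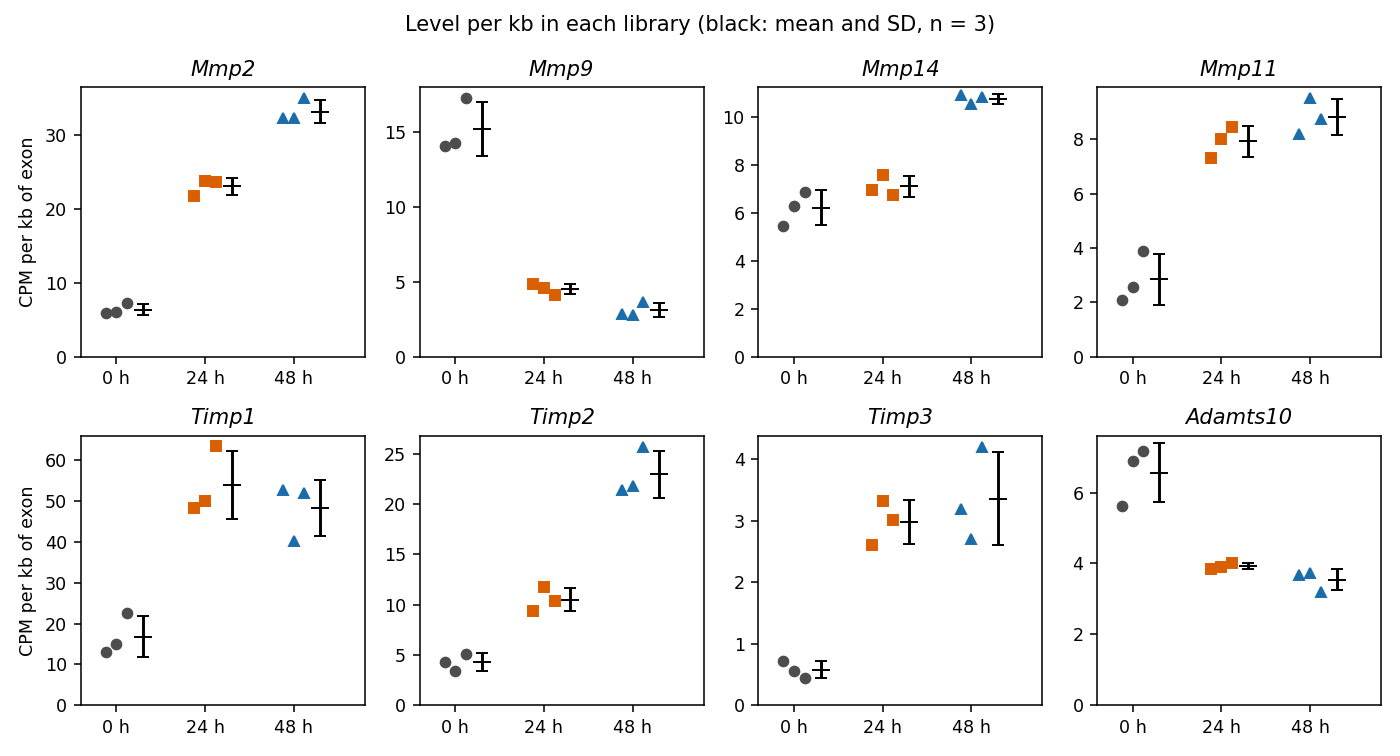
CPM per kb of exon of 8 abundant genes in each library, with the mean and SD of each time point in black (n = 3). Mmp2 rose to 33.1 CPM per kb by 48 h while Mmp9 fell to 3.10, Timp1 reached its higher level by 24 h, and Timp2 was higher again at 48 h.

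The gelatinases, which cleave denatured collagen and type IV collagen of basement membranes, moved in opposite directions. Mmp2 (gelatinase A, chr8:92827291-92853420 on GRCm38) was at 19.9, 20.2 and 24.4 CPM at 0 h, 73.1, 80.1 and 79.6 CPM at 24 h, and 108, 109 and 118 CPM at 48 h, with no overlap between any of the time points. It was higher than at 0 h by 3.61-fold (log2 1.85 ± 0.12, adjusted p = 7.52e-05) at 24 h and 5.22-fold (log2 2.38 ± 0.12, adjusted p = 2.1e-05) at 48 h. Here ± is a standard error worked back from the test on 3 libraries a group, as the log2 fold change over the square root of the F statistic. Adjusted p comes, as in all later values, from the quasi-likelihood test that edgeR fits, adjusted after Benjamini and Hochberg over all genes tested. From 24 h to 48 h it was higher by 1.45-fold (log2 0.53 ± 0.07, adjusted p = 0.00164). Mmp9 (gelatinase B, chr2:164940780-164955850) was at 49.8, 50.5 and 61.1 CPM at 0 h, 17.1, 16.3 and 14.7 CPM at 24 h, and 10.1, 9.88 and 12.9 CPM at 48 h, again in 3 groups that did not overlap. It was lower by 3.35-fold (log2 -1.75 ± 0.13, adjusted p = 0.00012) at 24 h and 4.89-fold (log2 -2.29 ± 0.15, adjusted p = 6.49e-05) at 48 h. The further fall of Mmp9 after 24 h, 1.45-fold (log2 -0.54 ± 0.13, adjusted p = 0.0188), was lost without 24 h replicate 1 or 2 or 48 h replicate 1 (adjusted p 0.0542 to 0.0853), and with all 9 libraries in 1 fit (0.0547) and with GC and length offsets (0.0919). Per kb, Mmp9 stood 2.39, 2.39 and 2.38 times as high as Mmp2 in the 0 h libraries. Mmp2 stood 4.48, 5.17 and 5.69 times as high as Mmp9 at 24 h and 11.3, 11.5 and 9.57 times as high at 48 h. The order of the gelatinases was therefore the same in every library of a time point and opposite at 0 h and afterwards. Mmp2 made up 14.7 ± 0.29% of the summed Mmp transcripts per kb at 0 h, 44.1 ± 1.22% at 24 h and 49.8 ± 0.85% at 48 h. Mmp9 made up 35.0 ± 0.67%, 8.70 ± 0.83% and 4.65 ± 0.57%. In the same libraries the fibroblast and stromal sum was at most 380 CPM at 0 h and at least 2212 CPM later, and the endothelial and macrophage sums were lower in every later library. Within those lists Kdr, Pecam1 and Cd68 were lower at both later times, while Tie1, Tek and Cd14 were higher at both and Csf1r at 24 h. The Mmp2 and Mmp9 calls against 0 h held under all 13 alternatives.

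The membrane-type proteases cleave matrix at the cell surface, and here they changed in both directions. Mmp14, which activates the MMP2 precursor with the help of TIMP2, was at 32.5, 37.5 and 41.1 CPM at 0 h, 41.6, 45.3 and 40.3 CPM at 24 h, and 65.1, 62.8 and 64.6 CPM at 48 h. The 0 h and 24 h values overlapped (log2 0.20 ± 0.12, adjusted p = 0.297), and it passed at 24 h only with GC and length offsets (adjusted p = 0.041). At 48 h Mmp14 was above every earlier library, by 1.74-fold (log2 0.80 ± 0.12, adjusted p = 0.00201) against 0 h and 1.52-fold (log2 0.61 ± 0.08, adjusted p = 0.0011) against 24 h. Mmp15, a relative with a transmembrane anchor like its own, was at 17.6, 21.8 and 26.2 CPM at 0 h, 13.6, 8.80 and 9.75 CPM at 24 h, and 7.23, 6.31 and 7.15 CPM at 48 h, lower in every later library. The fall was 2.04-fold (log2 -1.03 ± 0.21, adjusted p = 0.0113) at 24 h and 3.15-fold (log2 -1.66 ± 0.17, adjusted p = 0.000473) at 48 h. The 24 h call was lost without 24 h replicate 2 (adjusted p = 0.0539) or without 24 h replicate 3 (0.0578). Between 24 h and 48 h the difference in Mmp15 (log2 -0.63 ± 0.17, adjusted p = 0.0309) was kept under 6 of 13 alternatives and lost without 24 h replicate 1 or 3 or 48 h replicate 1, 2 or 3 (adjusted p 0.0562 to 0.107), and with all 9 libraries in 1 fit (0.1) and with GC and length offsets (0.104).

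Mmp16, a membrane-type protease with a transmembrane anchor, was scarce at 0.492, 0.643 and 0.705 CPM at 0 h, 1.21, 1.44 and 2.10 CPM at 24 h, and 3.23, 2.60 and 3.50 CPM at 48 h. Its 3 groups did not overlap, and it was higher by 2.55-fold (log2 1.35 ± 0.35, adjusted p = 0.0267) at 24 h and 5.03-fold (log2 2.33 ± 0.28, adjusted p = 0.000841) at 48 h. The 24 h call was kept under 7 of 13 alternatives and lost without 0 h replicate 1 or 2 or 24 h replicate 1, 2 or 3 (adjusted p 0.0503 to 0.107). The difference between 24 h and 48 h (log2 0.98 ± 0.27, adjusted p = 0.0304) was kept under 8 of 13 alternatives and lost without 24 h replicate 1 or 2 or 48 h replicate 1 or 3 (adjusted p 0.0835 to 0.105), and with all 9 libraries in 1 fit (0.0691). The proteases held by a lipid anchor, Mmp17 and Mmp25, were both lower by 48 h. Mmp17 was at 22.1, 27.1 and 29.9 CPM at 0 h, 23.3, 22.8 and 21.3 CPM at 24 h, and 19.2, 20.1 and 17.6 CPM at 48 h, and all 48 h libraries and 1 of the 24 h libraries lay below all 0 h libraries. That difference, 1.39-fold (log2 -0.47 ± 0.14, adjusted p = 0.0358), was kept under 5 of 13 alternatives and lost without 0 h replicate 2 or 3 or 48 h replicate 1, 2 or 3 (adjusted p 0.0784 to 0.146), and with library size alone (0.0872) and with no filter (0.0636). Mmp25, known from leukocytes, was at 4.18, 3.61 and 3.52 CPM at 0 h, 0.804, 0.693 and 0.536 CPM at 24 h, and 0.512, 0.485 and 0.250 CPM at 48 h. It was lower by 5.52-fold (log2 -2.47 ± 0.27, adjusted p = 0.000702) at 24 h and 8.90-fold (log2 -3.15 ± 0.32, adjusted p = 0.000425) at 48 h, beside macrophage sums of at least 16.1 CPM at 0 h and at most 11.8 CPM later. Cd68 alone held 15.6 ± 0.600 CPM of the macrophage sum at 0 h, where Adgre1, C1qa and C1qb were at the floor. Csf1r and Cd14 were higher at 24 h, and Cd14 also at 48 h. Mmp24, known from neurons, stayed at or below 1.01 CPM and passed in no comparison. Of the 6 membrane-type genes, 1 was higher and 2 lower among 6 tested at 24 h, and 2 were higher and 3 lower among 5 tested at 48 h.

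Of the mouse Mmp genes, 10 lie side by side on chromosome 9, in the 427 kb from position 7272514 to 7699585 of GRCm38. They include the genes grouped here as collagenases (Mmp1a, Mmp1b, Mmp8 and Mmp13) and the stromelysins Mmp3 and Mmp10. The others are the matrilysin Mmp7, the macrophage metalloelastase Mmp12, the enamel protease Mmp20 and Mmp27. Mmp1a is annotated as a polymorphic pseudogene. In these libraries most of the cluster had few or no counts. Mmp1a, Mmp1b, Mmp7, Mmp8, Mmp20 and Mmp27 had 3 counts or fewer in every library, Mmp7 and Mmp27 had none, and Mmp10 and Mmp12 reached at most 8 counts. A library with 0 counts of a gene allows up to 3 counts, which is a limit of counting error only. None of the 36 members outside the cluster was at this floor in all 9 libraries.

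Mmp3, a stromelysin that also activates other precursors, was the exception at 0 h. It was at 5.78, 3.21 and 2.72 CPM at 0 h, 1.21, 0.640 and 1.02 CPM at 24 h, and 1.69, 2.43 and 2.40 CPM at 48 h, so that the 24 h libraries lay below all others. Mmp3 was lower at 24 h by 4.05-fold (log2 -2.02 ± 0.40, adjusted p = 0.0097) and then higher at 48 h than at 24 h by 2.27-fold (log2 1.18 ± 0.30, adjusted p = 0.022). The second difference was kept under 8 of 13 alternatives and lost without 24 h replicate 2 or 3 or 48 h replicate 3 (adjusted p 0.0516 to 0.075), and with all 9 libraries in 1 fit (0.092). Between 48 h and 0 h the difference did not pass (log2 -0.84 ± 0.35, adjusted p = 0.112), and it passed only without 0 h replicate 3 (adjusted p = 0.049). Of 75-base windows along Mmp3, 3.76% also occur in Mmp10, and reads from those stretches could count for either gene. Mmp13, the collagenase of cartilage and bone, was at 0.369, 0.148 and 0.101 CPM at 0 h, 0.553, 0.640 and 0.780 CPM at 24 h, and 1.43, 1.06 and 0.600 CPM at 48 h. It passed as higher at 48 h (log2 2.34 ± 0.59, adjusted p = 0.0213), but was lost without 0 h replicate 2 or 48 h replicate 1 or 2 (adjusted p 0.0678 to 0.088). At 24 h it stood above every 0 h library without passing (log2 1.69 ± 0.54, adjusted p = 0.0565), and it passed without 0 h replicate 1 (adjusted p = 0.0221), with library size alone, with all 9 libraries in 1 fit and with GC and length offsets.

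**Figure D4:**
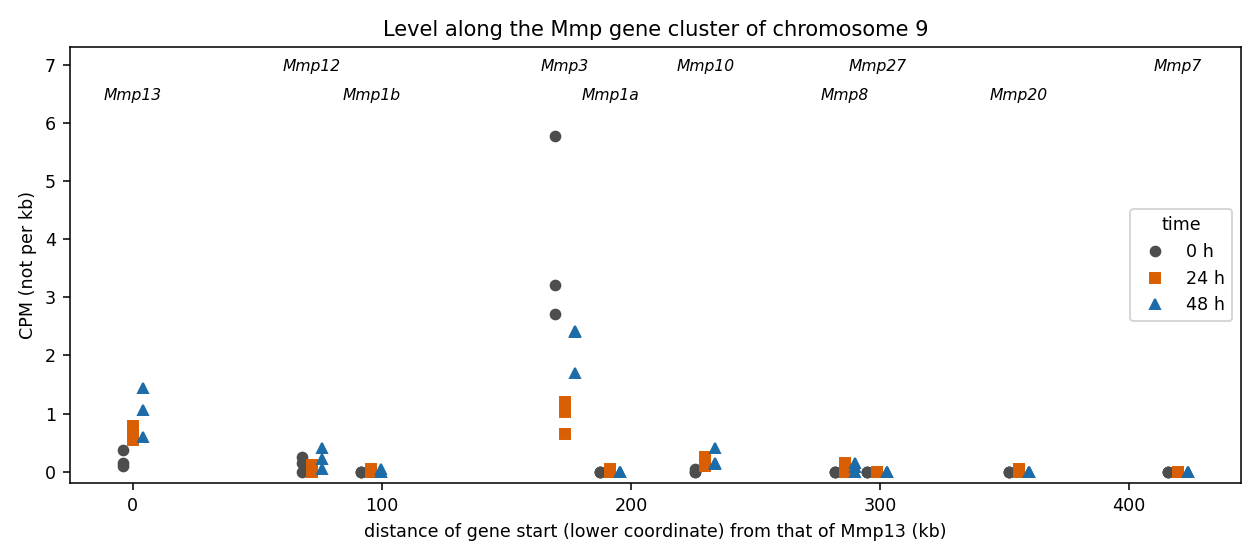
CPM of the 10 Mmp genes of the chromosome 9 cluster in each library, placed by the distance of each gene from Mmp13 in kb. Mmp3 reached 5.78 CPM in a 0 h library and Mmp13 1.43 CPM in a 48 h library, and each of the other 8 genes stayed at or below 0.41 CPM.

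The promoters of this cluster are shown because most of them share the motif of AP-1, the Fos and Jun factor known to switch on several of these genes in other cells. RefSeq promoter windows of 300 bases, from 250 before to 50 after the start, were at hand for 32 of the 46 genes. Mmp2, Mmp9, Mmp16, Mmp17, Mmp19, Adamts5 and Adamts10 were among those without a window. The motif counts therefore say nothing of these genes. The letters TGANTCA were read on both strands with any base at N, a looser search than TGAGTCA or TGACTCA alone. They occurred in 8 of the 10 cluster genes, in 0 of the 22 other members and in 7.81% of all 32851 windows. In Mmp20 the letters were TGAATCA, and in the other cluster genes with a match TGAGTCA or TGACTCA. The TATA box, searched as TATAAA, occurred in 9 of 10, in 2 of 22 and in 13.6% of all windows. A gene counts here if any of its windows holds the letters. Mmp12 has a window at its gene start (chr9:7344147-7344446) that holds neither motif. It counts through a window inside the gene (chr9:7347124-7347423), where TATAAA begins at base 5 after the start. The stretch printed for Mmp12 lies before that inner start. The 110 bases before the RefSeq start of the 8 genes with AP-1 letters (GRCm38.p6) are given 5′ to 3′, those letters in capitals:
Mmp13 (chr9:7272404-7272513, plus strand): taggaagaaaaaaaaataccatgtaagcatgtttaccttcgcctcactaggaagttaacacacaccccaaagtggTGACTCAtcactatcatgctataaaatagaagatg
Mmp12 (chr9:7347264-7347373, plus strand): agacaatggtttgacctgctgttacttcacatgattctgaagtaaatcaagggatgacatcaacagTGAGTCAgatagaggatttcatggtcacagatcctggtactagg
Mmp1b (chr9:7388027-7388136, minus strand): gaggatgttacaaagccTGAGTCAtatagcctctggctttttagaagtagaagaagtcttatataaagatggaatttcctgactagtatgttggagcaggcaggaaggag
Mmp3 (chr9:7445712-7445821, plus strand): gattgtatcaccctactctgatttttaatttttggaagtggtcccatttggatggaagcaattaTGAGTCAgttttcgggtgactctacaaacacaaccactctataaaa
Mmp1a (chr9:7464031-7464140, plus strand): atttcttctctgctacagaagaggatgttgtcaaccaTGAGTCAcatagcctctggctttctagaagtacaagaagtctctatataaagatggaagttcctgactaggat
Mmp10 (chr9:7502232-7502341, plus strand): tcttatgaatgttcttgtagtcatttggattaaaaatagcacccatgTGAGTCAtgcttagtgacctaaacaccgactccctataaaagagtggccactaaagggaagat
Mmp20 (chr9:7628121-7628230, plus strand): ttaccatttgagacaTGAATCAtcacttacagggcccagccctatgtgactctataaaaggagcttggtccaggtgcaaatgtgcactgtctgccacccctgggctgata
Mmp7 (chr9:7691980-7692089, plus strand): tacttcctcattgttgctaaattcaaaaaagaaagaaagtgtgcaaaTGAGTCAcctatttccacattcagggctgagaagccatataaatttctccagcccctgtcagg
The TGANTCA letters began 35 bases before the start in Mmp13 and 46 in Mmp3. These were the genes of this cluster that had over 8 counts in a library. In the others the letters began between 44 and 95 bases before the start. The PEA3 letters AGGAAG occurred in 7 of the 10 cluster genes, in 8 of the 22 others and in 35.4% of all windows. The GC box, searched as GGGCGG, was absent from the cluster windows, and occurred in 18 of the 22 other members and in 35.7% of all windows. Retinoic acid response elements of the DR5 and DR2 kinds occurred in 0 of the 32 members, beside 0.0974% and 0.268% of all windows. The GC box was also in scarce members, such as Adamts13, Mmp24 and Adamts18 (means of 0.328, 0.503 and 0.240 CPM at 48 h). Whether these letters go with level was not tested. Timp1 and Mmp14, which ranked 1 and 4 by CPM per kb at 48 h, are shown as examples, with the GC box of either strand in capitals:
Timp1 (chrX:20870056-20870165, plus strand): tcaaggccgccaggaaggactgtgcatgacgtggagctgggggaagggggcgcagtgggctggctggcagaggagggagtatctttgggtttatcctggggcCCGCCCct
Mmp14 (chr14:54431488-54431597, plus strand): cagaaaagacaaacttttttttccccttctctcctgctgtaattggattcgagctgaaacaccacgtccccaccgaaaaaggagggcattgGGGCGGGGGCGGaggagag
A match is a string of letters and not a bound site, and no match means only that these letters are not in this window.

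Mmp11, a stromelysin that furin activates before it leaves the cell, lies on chromosome 10. It was at 5.78, 7.17 and 10.8 CPM at 0 h, 20.3, 22.2 and 23.5 CPM at 24 h, and 22.8, 26.5 and 24.3 CPM at 48 h, with every later library above every 0 h library. The difference was 2.79-fold (log2 1.48 ± 0.22, adjusted p = 0.00288) at 24 h and 3.11-fold (log2 1.64 ± 0.22, adjusted p = 0.00152) at 48 h. The 24 h and 48 h libraries overlapped (log2 0.16 ± 0.09, adjusted p = 0.23), and the difference passed with GC and length offsets (adjusted p = 0.0172). Its share of the summed Mmp transcripts per kb was 6.46 ± 1.41% at 0 h, 15.2 ± 0.85% at 24 h and 13.3 ± 1.12% at 48 h. Exons of Chchd10 on the other strand cover 5.58% of its exon bases.

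Among the remaining metalloproteases, Mmp23, a membrane protein of unusual build that lacks the hemopexin domain, was at 0.430, 0.346 and 0.403 CPM at 0 h, 2.26, 2.24 and 2.88 CPM at 24 h, and 4.25, 3.49 and 4.10 CPM at 48 h. Mmp23 was higher by 6.20-fold (log2 2.63 ± 0.30, adjusted p = 0.000817) at 24 h and 9.97-fold (log2 3.32 ± 0.27, adjusted p = 0.000138) at 48 h, with 3 groups that did not overlap. The further step to 48 h (log2 0.69 ± 0.20, adjusted p = 0.0398) was kept under 6 of 13 alternatives and lost without 24 h replicate 1 or 2 or 48 h replicate 1 or 3 (adjusted p 0.105 to 0.128), and with DESeq2 (0.0583) and with all 9 libraries in 1 fit (0.0874). Mmp19, which cleaves basement membrane proteins, was at 3.07, 3.31 and 2.97 CPM at 0 h, 4.12, 4.91 and 4.73 CPM at 24 h, and 6.61, 5.74 and 6.35 CPM at 48 h. It passed at 48 h (log2 1.00 ± 0.18, adjusted p = 0.00529) and not at 24 h (log2 0.56 ± 0.19, adjusted p = 0.0752), where it passed with library size alone (0.0401), all 9 libraries in 1 fit (0.0339) or GC and length offsets (0.0303). Exons of Tmem198b on the other strand cover 22.3% of its exon bases. Mmp21, known from left-right patterning of the embryo, was at 0.615, 0.643 and 0.453 CPM at 0 h, 0.101, 0.853 and 0.877 CPM at 24 h, and 1.49, 1.01 and 1.40 CPM at 48 h, with a 24 h library below the other 8. It passed at 48 h (log2 1.19 ± 0.34, adjusted p = 0.0338), a call kept under 4 of 13 alternatives and lost without 0 h replicate 2 or 3 or 48 h replicate 1, 2 or 3 (adjusted p 0.0531 to 0.127), and with DESeq2 (0.0639), with no filter (0.0746) and with all 9 libraries in 1 fit (0.129). Mmp28, an epilysin known from skin and testis, was at 1.17, 1.58 and 1.41 CPM at 0 h, 0.352, 0.427 and 0.829 CPM at 24 h, and 1.13, 0.706 and 0.700 CPM at 48 h. It was lower at 24 h (log2 -1.36 ± 0.40, adjusted p = 0.0433), a call kept under 5 of 13 alternatives and lost without 0 h replicate 2 or 3 or 24 h replicate 1 or 2 (adjusted p 0.0623 to 0.158), and with DESeq2 (0.0529), with library size alone (0.0536) and with no filter (0.0588), and its 48 h libraries lay below those of 0 h without passing (log2 -0.71 ± 0.33, adjusted p = 0.146). Exons of 1700020L24Rik on the other strand overlap some of its exon bases.

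**Figure D5:**
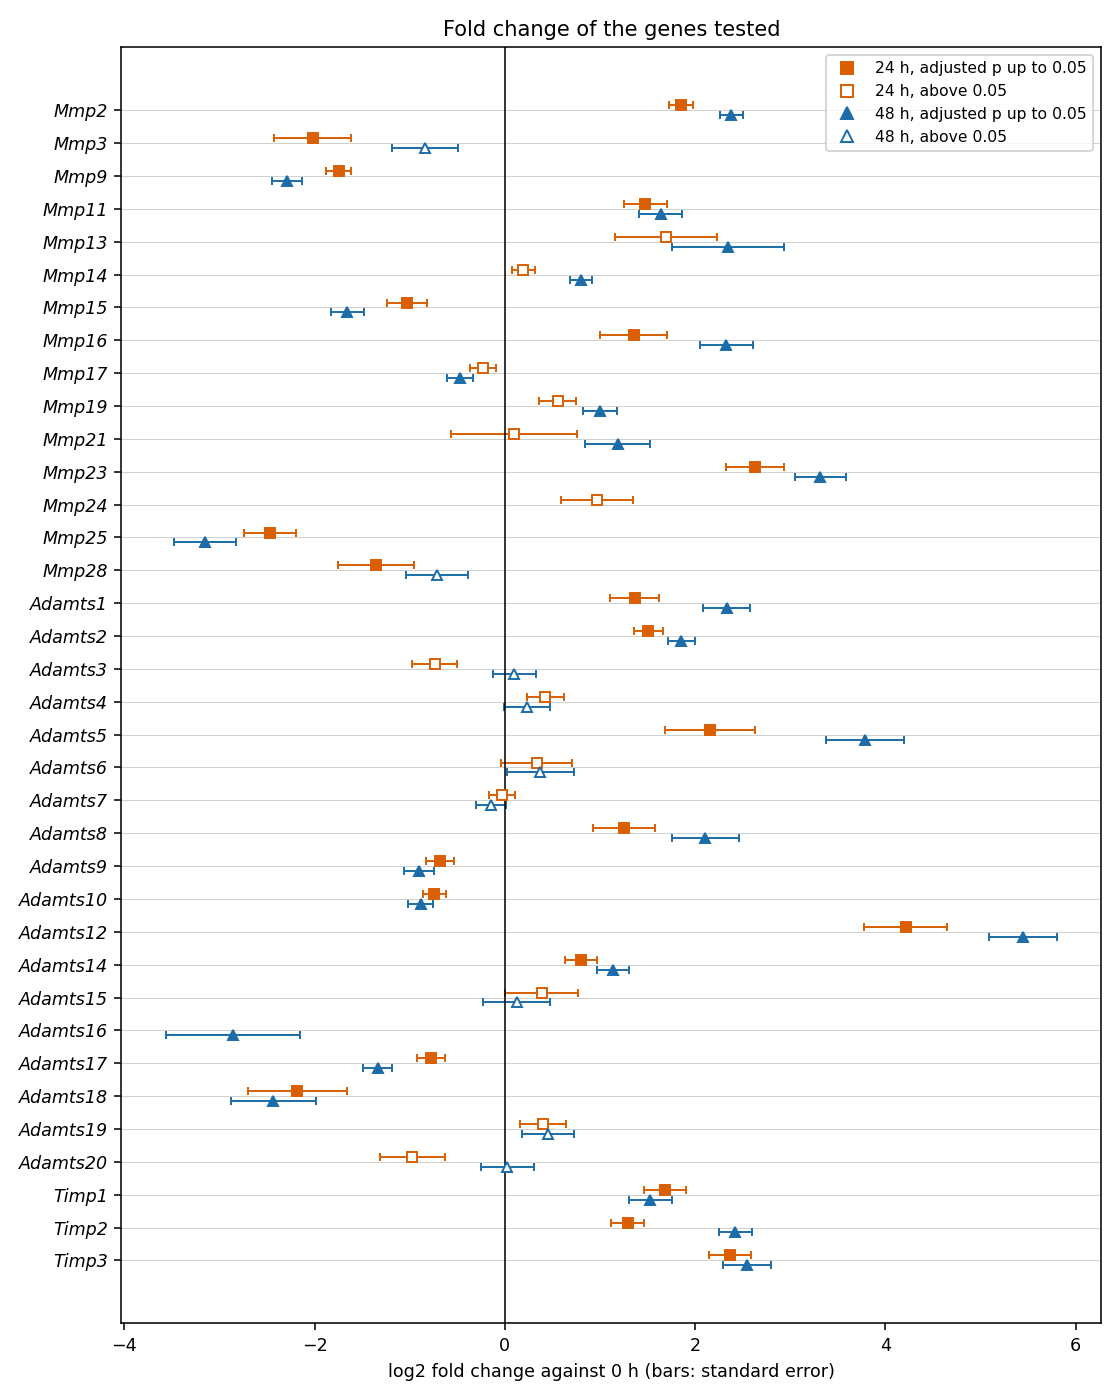
Log2 fold change against 0 h of the genes tested at 24 h (squares) and 48 h (triangles), with the standard error worked back from the edgeR test as bars and filled marks where the adjusted p was up to 0.05. Adamts12, Adamts5 and Mmp23 show the largest rises at 48 h, Mmp25, Adamts16 and Adamts18 the largest falls, and the marks of Adamts3, Adamts4, Adamts6, Adamts7, Adamts15, Adamts19 and Adamts20 are open at both times. The 24 h mark of Adamts16 is left out, as all its 24 h libraries were at the floor.

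The procollagen N-proteinases, which cut the amino-terminal propeptide from fibrillar procollagens, did not move as a group. Adamts2 was at 10.0, 8.06 and 8.26 CPM at 0 h, 23.1, 26.5 and 25.3 CPM at 24 h, and 32.3, 31.2 and 31.6 CPM at 48 h, in 3 groups that did not overlap. Adamts2 was higher by 2.84-fold (log2 1.51 ± 0.15, adjusted p = 0.000427) at 24 h and 3.62-fold (log2 1.86 ± 0.14, adjusted p = 9.66e-05) at 48 h. The step from 24 h to 48 h (log2 0.35 ± 0.08, adjusted p = 0.0178) was kept under 8 of 13 alternatives and lost without 24 h replicate 1 or 48 h replicate 1 or 3 (adjusted p 0.0521 to 0.0741), and with all 9 libraries in 1 fit (0.109). Adamts14 was at 11.4, 16.6 and 16.5 CPM at 0 h, 28.7, 25.2 and 23.8 CPM at 24 h, and 31.8, 36.2 and 29.8 CPM at 48 h, also without overlap. Adamts14 was higher by 1.74-fold (log2 0.80 ± 0.17, adjusted p = 0.0121) at 24 h, a call lost without 24 h replicate 1 (adjusted p = 0.0608). At 48 h it was higher by 2.20-fold (log2 1.14 ± 0.17, adjusted p = 0.00205). Its step from 24 h to 48 h (log2 0.34 ± 0.09, adjusted p = 0.0302) was kept under 7 of 13 alternatives and lost without 24 h replicate 2 or 3 or 48 h replicate 1 or 2 (adjusted p 0.0698 to 0.0846), and with all 9 libraries in 1 fit (0.208). Adamts3, which also processes the lymphatic growth factor VEGF-C, was at 9.90, 8.21 and 5.84 CPM at 0 h, 5.08, 4.96 and 4.34 CPM at 24 h, and 7.63, 9.09 and 8.86 CPM at 48 h. Its 0 h and 48 h libraries overlapped and lay above those of 24 h, and it was higher at 48 h than at 24 h by 1.79-fold (log2 0.84 ± 0.14, adjusted p = 0.00385). The difference between 24 h and 0 h did not pass (log2 -0.74 ± 0.24, adjusted p = 0.0586) but passed with DESeq2, with all 9 libraries in 1 fit, with GC and length offsets and without 0 h replicate 3 (adjusted p = 0.0101). Bmp1, which cuts the other end of the same procollagens, was at 8.01 ± 0.635 CPM at 0 h, then 35.5 ± 0.502 (24 h) and 38.0 ± 2.15 (48 h) and passed as higher at both times (log2 2.25 ± 0.12, adjusted p = 2.63e-05 at 48 h). The fibroblast and stromal list, in which the fibrillar collagen genes Col1a1, Col1a2 and Col3a1 are counted, summed in the same libraries to at most 380 CPM at 0 h and at least 2212 CPM later.

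Of the 7 proteoglycanases, 3 were higher and 1 lower at both 24 h and 48 h. Adamts1, which cleaves versican and aggrecan and is known from ovulation, was at 3.75, 3.56 and 2.06 CPM at 0 h, 7.79, 8.32 and 8.09 CPM at 24 h, and 16.2, 15.2 and 15.7 CPM at 48 h. The difference against 0 h was 2.58-fold (log2 1.37 ± 0.26, adjusted p = 0.00758) at 24 h and 5.03-fold (log2 2.33 ± 0.25, adjusted p = 0.000481) at 48 h. Between 24 h and 48 h it was 1.95-fold (log2 0.96 ± 0.11, adjusted p = 0.000546). Adamts5, its neighbour 53.1 kb away on chromosome 16 and the main aggrecanase of mouse cartilage, was at 0.983, 0.643 and 0.252 CPM at 0 h, 2.51, 2.24 and 3.56 CPM at 24 h, and 7.58, 8.65 and 9.46 CPM at 48 h. Adamts5 was higher by 4.45-fold (log2 2.16 ± 0.47, adjusted p = 0.0138) at 24 h and 13.8-fold (log2 3.79 ± 0.41, adjusted p = 0.000546) at 48 h, and by 3.09-fold (log2 1.63 ± 0.20, adjusted p = 0.000878) between them. The 24 h call was kept under 11 of 13 alternatives and lost without 24 h replicate 3 (adjusted p = 0.0636). Both neighbours thus stood in 3 groups without overlap. Adamts8, known to restrain blood vessel growth, was at 0.492, 0.445 and 0.604 CPM at 0 h, 1.46, 1.12 and 1.12 CPM at 24 h, and 1.74, 3.09 and 1.85 CPM at 48 h. It passed at 24 h (log2 1.25 ± 0.33, adjusted p = 0.0277) and 48 h (log2 2.11 ± 0.35, adjusted p = 0.00389). The 24 h call was kept under 5 of 13 alternatives and lost without 0 h replicate 1 or 2 or 24 h replicate 1, 2 or 3 (adjusted p 0.0548 to 0.126), and with DESeq2 (0.0717) and with no filter (0.071). Exons of Gm29724 on the other strand cover 10.6% of its exon bases.

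Adamts9, a secreted protease that cleaves versican, ran the other way at 28.6, 26.6 and 21.9 CPM at 0 h, 15.0, 16.5 and 16.8 CPM at 24 h, and 14.9, 12.2 and 14.2 CPM at 48 h. It was lower by 1.60-fold (log2 -0.68 ± 0.15, adjusted p = 0.0139) at 24 h and 1.87-fold (log2 -0.90 ± 0.16, adjusted p = 0.00485) at 48 h. The 24 h call was kept under 8 of 13 alternatives and lost without 0 h replicate 2 or 24 h replicate 1, 2 or 3 (adjusted p 0.0506 to 0.0711). Exons of A730049H05Rik on the other strand cover 9.18% of its exon bases. Adamts20, known from the migration of pigment cells, was at 6.33, 6.08 and 3.42 CPM at 0 h, 3.37, 1.76 and 2.92 CPM at 24 h, and 6.15, 4.99 and 4.95 CPM at 48 h. Its 24 h libraries were the lowest, and it was higher at 48 h than at 24 h by 2.00-fold (log2 1.00 ± 0.24, adjusted p = 0.0178), a call kept under 11 of 13 alternatives and lost without 48 h replicate 1 (adjusted p = 0.0721), and with all 9 libraries in 1 fit (0.0828). Against 0 h it did not pass at 24 h (log2 -0.97 ± 0.34, adjusted p = 0.077), and passed without 0 h replicate 3 (adjusted p = 0.0168), with DESeq2, with all 9 libraries in 1 fit and with GC and length offsets. Adamts4, the other well known aggrecanase, was at 4.24, 5.64 and 5.08 CPM at 0 h, 7.44, 6.93 and 5.75 CPM at 24 h, and 6.30, 7.10 and 4.15 CPM at 48 h and passed in no comparison, with a log2 fold change of 0.43 ± 0.19 at 24 h. Adamts15 lay between 0.55 and 1.55 CPM and passed in none. Versican (Vcan) was at 5.57 ± 4.42 CPM at 0 h, then 24.6 ± 5.24 (24 h) and 29.8 ± 9.18 (48 h), higher at 48 h (log2 2.43 ± 0.55, adjusted p = 0.0137), with SDs of up to 9.18 CPM over 3 libraries. Aggrecan (Acan) was at 27.8 ± 5.50 CPM at 0 h, then 29.2 ± 1.82 (24 h) and 20.9 ± 1.14 (48 h). It did not pass against 0 h and was lower at 48 h than at 24 h (log2 -0.47 ± 0.08, adjusted p = 0.0035).

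The ADAMTS proteases known to cleave cartilage oligomeric matrix protein differed from each other. Adamts12 was at 0.0615, 0.247 and 0.151 CPM at 0 h, 3.22, 3.52 and 2.39 CPM at 24 h, and 7.38, 6.62 and 7.36 CPM at 48 h. It showed the largest fitted fold change against 0 h of the Mmp, Adamts and Timp genes tested. This was 18.6-fold (log2 4.21 ± 0.44, adjusted p = 0.00051) at 24 h and 43.5-fold (log2 5.44 ± 0.36, adjusted p = 5.73e-05) at 48 h. It was higher again at 48 h than at 24 h by 2.35-fold (log2 1.23 ± 0.18, adjusted p = 0.0023). At 0 h this rests on no more than 5 counts per library. Adamts7, its closest relative, was at 11.2, 12.8 and 13.6 CPM at 0 h, 12.9, 12.5 and 11.4 CPM at 24 h, and 12.2, 9.71 and 11.9 CPM at 48 h. Its libraries overlapped at all times, and its log2 fold change against 0 h was -0.03 ± 0.14 (24 h) or -0.15 ± 0.16 (48 h). For the genes higher at both times among the ADAMTS family, the myoid sum in the same libraries was at most 15.8 CPM at 0 h and at least 149 CPM later. The fibroblast and stromal, Sertoli and Leydig sums were also higher in every later library. The part of any of these lists in the ADAMTS changes was not tested.

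Of the remaining ADAMTS genes, 4 of 6 tested were lower at 24 h and at 48 h, and none was higher. Adamts10 and Adamts17, both known for binding fibrillin microfibrils, were among them. Adamts10 was at 46.3, 56.8 and 59.3 CPM at 0 h, 31.8, 32.1 and 33.1 CPM at 24 h, and 30.3, 30.9 and 26.4 CPM at 48 h. It was lower by 1.67-fold (log2 -0.74 ± 0.12, adjusted p = 0.00403) at 24 h and 1.85-fold (log2 -0.88 ± 0.13, adjusted p = 0.00213) at 48 h. It made up 30.5 ± 3.03% of the summed Adamts transcripts per kb at 0 h, 17.8 ± 0.95% at 24 h and 13.5 ± 0.75% at 48 h. Adamts17 was at 15.6, 20.4 and 19.5 CPM at 0 h, 11.5, 9.81 and 11.0 CPM at 24 h, and 6.71, 7.50 and 7.61 CPM at 48 h, in 3 groups that did not overlap. It was lower by 1.71-fold (log2 -0.77 ± 0.15, adjusted p = 0.00834) at 24 h and 2.53-fold (log2 -1.34 ± 0.15, adjusted p = 0.000642) at 48 h. The difference between them, 1.47-fold (log2 -0.56 ± 0.12, adjusted p = 0.0117), was lost without 48 h replicate 1 (adjusted p = 0.0612).

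Adamts16 and Adamts18, close relatives of each other, were scarce and fell to a few counts. Adamts16 was at 1.04, 1.14 and 1.11 CPM at 0 h, 0.101, 0.0533 and 0.146 CPM at 24 h, and 0.307, 0.132 and 0 CPM at 48 h. All 24 h libraries were at the floor of 3 counts, so Adamts16 was at least 7.20-fold lower there, against a floor of 0.152 CPM over the group (adjusted p = 0.00161). At 48 h it was also lower (log2 -2.86 ± 0.70, adjusted p = 0.0195), a call lost without 0 h replicate 2 (adjusted p = 0.0627) or without 48 h replicate 2 (0.0825). Adamts18 was at 1.97, 1.09 and 0.956 CPM at 0 h, 0.452, 0.267 and 0.146 CPM at 24 h, and 0.205, 0.265 and 0.250 CPM at 48 h. It was lower at 24 h (log2 -2.18 ± 0.52, adjusted p = 0.0197), a call lost without 24 h replicate 2 (adjusted p = 0.0814) or without 24 h replicate 3 (0.0764), and at 48 h (log2 -2.43 ± 0.45, adjusted p = 0.00583). Adamts19, a close relative of Adamts17, was at 8.05, 6.13 and 4.53 CPM at 0 h, 7.94, 8.96 and 7.80 CPM at 24 h, and 9.07, 6.49 and 10.1 CPM at 48 h, and passed in no comparison. Adamts6 lay between 1.11 and 3.04 CPM without passing, and Adamts13, the von Willebrand factor protease of blood, lay between 0.18 and 0.61 CPM and was not tested. In these libraries the germ cell sums overlapped between all time points, with a wide spread of 1684 to 2688 CPM at 0 h. The part of germ cell RNA in these changes was not tested.

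The inhibitors Timp1, Timp2 and Timp3 were all higher at 24 h and at 48 h. Timp4, known from heart and vessels, stayed at or below 0.75 CPM and was not tested. Its values were 0.123, 0.445 and 0.252 CPM at 0 h, 0.352, 0.747 and 0.390 CPM at 24 h, and 0.205, 0.132 and 0.300 CPM at 48 h. Timp1, on the X chromosome (chrX:20870166-20874735), was at 11.5, 13.2 and 20.0 CPM at 0 h, 42.9, 44.4 and 56.3 CPM at 24 h, and 46.8, 35.8 and 46.0 CPM at 48 h. Timp1 was higher by 3.21-fold (log2 1.68 ± 0.22, adjusted p = 0.00149) at 24 h and 2.89-fold (log2 1.53 ± 0.22, adjusted p = 0.00203) at 48 h. Its 24 h and 48 h libraries overlapped (log2 -0.15 ± 0.14, adjusted p = 0.47). Timp2 (chr11:118301069-118355740) was at 16.8, 13.3 and 20.0 CPM at 0 h, 36.6, 45.7 and 40.3 CPM at 24 h, and 83.4, 84.8 and 99.9 CPM at 48 h, in 3 groups that did not overlap. Against 0 h it was higher by 2.45-fold (log2 1.29 ± 0.18, adjusted p = 0.00176) at 24 h and 5.37-fold (log2 2.42 ± 0.18, adjusted p = 8.7e-05) at 48 h. Between those times the difference was 2.20-fold (log2 1.13 ± 0.11, adjusted p = 0.000293). Timp3 (chr10:86300372-86349506), which binds to the matrix, was at 5.90, 4.60 and 3.62 CPM at 0 h, 21.3, 27.1 and 24.5 CPM at 24 h, and 26.0, 22.0 and 34.1 CPM at 48 h. It was higher by 5.16-fold (log2 2.37 ± 0.22, adjusted p = 0.000295) at 24 h and 5.83-fold (log2 2.54 ± 0.25, adjusted p = 0.000359) at 48 h, with overlap between the later times (log2 0.18 ± 0.16, adjusted p = 0.468). The 6 calls of these inhibitors against 0 h held under all 13 alternatives.

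The inhibitors thus reached their later levels at different times, Timp1 and Timp3 with no further step that passed after 24 h and Timp2 with a step of log2 1.13 ± 0.11. Within the Timp sum per kb, Timp1 made up 76.8 ± 4.37% at 0 h, 79.7 ± 2.91% at 24 h and 64.6 ± 3.13% at 48 h. Timp2 made up 20.1 ± 3.40%, 15.7 ± 2.26% and 30.9 ± 2.98%. Timp3 lies inside the gene Syn3 on the other strand, whose exons cover 21.3% of its exon bases. As no strand setting is stated, reads of such partners cannot be told apart. Timp2, Mmp14 and Mmp2, which act together at the cell surface in the activation of MMP2, were each higher at 48 h than at 24 h, by log2 1.13 ± 0.11, 0.61 ± 0.08 and 0.53 ± 0.07. In the same libraries the fibroblast and stromal sum went from between 2212 and 2517 to between 2975 and 3219 CPM and the myoid sum from between 149 and 207 to between 267 and 317 CPM. The stromal sum is mostly Col1a1, Col1a2 and Col3a1. Of its 10 genes, 6 were higher, 1 (Pdgfra) lower and 3 not called at 48 h against 24 h. The Sertoli sums overlapped between 24 h and 48 h (54.3 to 84.3, then 66.5 to 69.4 CPM). The Leydig sums did so too (25.2 to 38.5, then 25.6 to 31.9 CPM). The macrophage and germ cell sums also overlapped, and the endothelial sums were lower at 48 h. The part of any of these lists in the rises of Timp2, Mmp14 and Mmp2 was not tested.

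The genes that act with the proteases were followed in lists. In the plasminogen system, which activates several metalloprotease precursors, 5 of 9 genes were higher and 2 lower at 24 h, against 2 and 3 at 48 h. Plaur, the receptor that holds urokinase at the cell surface, was at 22.3 ± 3.02 CPM at 0 h, then 3.18 ± 0.492 (24 h) and 1.71 ± 0.545 (48 h), and it was lower by log2 2.81 at 24 h and lower at 48 h (log2 -3.69 ± 0.25, adjusted p = 6.95e-05). Serpine2, an inhibitor of plasminogen activators and thrombin, was at 56.5 ± 6.81 CPM at 0 h, then 97.8 ± 6.11 (24 h) and 143 ± 7.21 (48 h) and higher at 48 h (log2 1.35 ± 0.13, adjusted p = 0.000296). Of 10 activating enzymes, surface partners and other inhibitors, 2 were higher and 3 lower at 24 h, against 3 and 4 at 48 h. Pcsk6, a convertase of the furin family, was at 18.3 ± 2.26 CPM at 0 h, then 5.41 ± 0.410 (24 h) and 5.73 ± 0.197 (48 h), lower at 48 h (log2 -1.67 ± 0.15, adjusted p = 0.000229). A2m, a plasma inhibitor that traps proteases of many kinds, was at 12.5 ± 0.231 CPM at 0 h, then 6.13 ± 2.23 (24 h) and 3.82 ± 0.792 (48 h), also lower (log2 -1.70 ± 0.19, adjusted p = 0.000622). Cd44, a hyaluronan receptor that holds proteases at the membrane, was at 8.77 ± 2.12 CPM at 0 h, then 16.3 ± 2.64 (24 h) and 20.0 ± 2.78 (48 h) and higher (log2 1.19 ± 0.22, adjusted p = 0.00563).

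The related protease families were mixed. Of 8 ADAM sheddases, membrane proteases that release cell surface proteins, 2 were higher and 4 lower at both 24 h and 48 h. Adam33 was at 26.9 ± 2.57 CPM at 0 h, then 1.82 ± 0.163 (24 h) and 1.73 ± 0.286 (48 h), lower at 48 h by log2 3.94 ± 0.18 (adjusted p = 1.5e-05). Adam12 was at 4.43 ± 0.607 CPM at 0 h, then 18.3 ± 2.23 (24 h) and 15.5 ± 1.43 (48 h) (log2 1.81 ± 0.18, adjusted p = 0.000328 at 48 h). Adam19 was at 9.38 ± 1.22 CPM at 0 h, then 15.7 ± 3.18 (24 h) and 21.3 ± 1.34 (48 h) (log2 1.19 ± 0.14, adjusted p = 0.000875). Of 7 ADAMTS-like proteins, which lack the protease domain, 3 were higher and none lower at 24 h, against 3 and 2 at 48 h. Among them were Thsd4 at 10.0 ± 0.855 CPM at 0 h, then 16.0 ± 0.446 (24 h) and 16.2 ± 1.59 (48 h) (log2 0.70 ± 0.14, adjusted p = 0.00896) and Adamtsl4 at 11.0 ± 0.452 CPM at 0 h, then 10.5 ± 1.95 (24 h) and 7.10 ± 0.578 (48 h) (log2 -0.63 ± 0.15, adjusted p = 0.0155). Of 7 astacins and pappalysins, 2 of 3 tested were higher at 24 h and 3 of 4 at 48 h. The largest change was in Pappa, which cleaves binding proteins of insulin-like growth factors, and was at 0.573 ± 0.302 CPM at 0 h, then 8.12 ± 0.876 (24 h) and 15.7 ± 3.16 (48 h) (log2 4.80 ± 0.37, adjusted p = 0.00011). Of 15 matrix substrates, 8 were higher and 2 lower (Nid1 and Nid2) at 24 h, against 7 and 3 (Nid1, Nid2 and Comp) at 48 h. Thrombospondin 1 (Thbs1), which activates latent TGF-β, was at 46.1 ± 17.8 CPM at 0 h, then 232 ± 32.8 (24 h) and 407 ± 29.3 (48 h) (log2 3.14 ± 0.28, adjusted p = 0.000225). Thbs2, which binds MMP2 for uptake, was at 15.0 ± 2.71 CPM at 0 h, then 40.4 ± 4.01 (24 h) and 83.5 ± 12.5 (48 h) (log2 2.48 ± 0.19, adjusted p = 0.000103).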

How the data were processed

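RNA was sequenced from 9 libraries, 3 at each of 0, 24 and 48 h. The authors deposited counts of reads per Ensembl gene for each library, without normalization. The submitters' processing notes name fastp, HISAT2, featureCounts and GRCm38. The annotation release and strand setting are not given in the sources used here, and counting of overlapping genes could affect the pairs named. Symbols, positions and exons came from GENCODE M21, which held 45229 of 46078 identifiers. The other 849 took at most 0.121% of a library's counts.

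Each comparison used the 6 libraries of its groups, filterByExpr, TMM and edgeR 4.0.16 in R 4.3.3 (quasi-likelihood, two-sided), with Benjamini-Hochberg adjustment over all genes tested and a threshold of 0.05. The study used DESeq2, here an alternative (1.42.0). A gene with at most 3 counts in each library of a group was at the floor, and counting error alone sets that limit. Replicates differed beyond sampling noise and each counts once. Chi-square over its degrees of freedom was 35.5 to 81.4 between replicates at 0 h, 7.97 to 13.4 at 24 h and 7.13 to 26 at 48 h. The 0 h replicates, on which each comparison against 0 h rests, were thus the least alike. Genes were given in every library if they reached 5 CPM in 1 time point, or 1 CPM and a call, or were Timp genes, which were 34 of 46. For each of 6 pathway lists, up to 3 called genes with at least 10 CPM and the largest change at 48 h were named. Acan, Nid1, Nid2 and Comp were named besides. Columns of no sample numbered 0. Promoter windows came from RefSeq (GRCm38.p6). Shared sequence was counted in windows of 75 bases.

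The genes and lists were chosen with earlier results of these data known. Alternatives were DESeq2, its size factors, library size alone, no filter, a replicate block, a joint fit of all 9 libraries, leaving out each library, the longest transcript as length and, chosen after seeing the data, offsets for GC content and length (splines of 5 and 4 degrees of freedom). The procedure was tested on simulated data. Figures used matplotlib 3.10.9 in Python 3.11.15.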

Additional observations from a re-analysis of the deposited data

How the results depend on the processing

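Of 1257 recomputed fold changes of the genes given in every library, 1118 kept their direction and side of the threshold, 99 lost and 22 gained a call, and 18 changed sign, none of them a call in either fit. With all 9 libraries in 1 fit, 8 members and 1043 genes in all passed between 48 h and 24 h, against 16 and 3732. Leaving out each library in turn gave 17 to 24 members at 24 h against 0 h (2607 to 6023 genes in all), 22 to 26 at 48 h (3471 to 7116), and 8 to 14 between 48 h and 24 h (1857 to 4356), where the lowest count came without 48 h replicate 1. The count over all genes moved by over 1.5 times without 0 h replicate 2 or any 24 h library at 24 h, without 48 h replicate 1 or 3 at 48 h, and without 24 h replicate 1 or 48 h replicate 1 or 3 between them. These fits have 2 libraries in 1 group.

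The sign changes, in log2 fold changes that did not pass, are given with the range over left-out libraries. Against 0 h at 24 h, Adamts7 ran from -0.0920 to 0.0467 (positive without 0 h or 24 h replicate 3, and 0.0826 with library size alone), and Mmp21 from -0.260 to 0.601 (negative without 0 h replicate 3 or 24 h replicate 2 or 3, and -0.0792 with the replicate block). At 48 h, Adamts3 ran from -0.0618 to 0.293 (negative without 0 h replicate 3), Adamts20 from -0.187 to 0.187 (negative without 0 h replicate 3 or 48 h replicate 1), and Adamts7 was at 0.0734 with GC and length offsets. Between 48 h and 24 h, Adamts4 ran from -0.335 to 0.00156, Adamts19 from -0.0810 to 0.239 and Timp3 from -0.0176 to 0.329 (all turned without 48 h replicate 3), Adamts7 from -0.164 to 1.25e-05 (without 48 h replicate 2) and Timp1 from -0.237 to 0.00320 (without 24 h replicate 3), and GC and length offsets gave 0.0774 for Adamts7 and 0.0763 for Adamts10. The cause was not tested.

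With the longest transcript as length, the TIMP share was 20.7% at 0 h, 42.8% at 24 h and 40.0% at 48 h. Library size alone moved the median log2 fold change of all genes to 0.12 at 24 h and 0.13 at 48 h, from 0.01 and 0.02, and the share of calls that were higher from 44.5% to 57.1% and from 41.2% to 52.8%. GC and length offsets gave 50.7% and 51.3%, and 94.1% in place of 81.3% of the members called between 48 h and 24 h. No pairing by replicate number was seen, as correlations of same-numbered deviations ran from -0.28 to 0.195. With 3 libraries a group such correlations cannot exclude pairing. With the number as a replicate block, 18, 24 and 12 members passed in the 3 comparisons, and the calls of Adamts5, Adamts8, Adamts9, Mmp16 and Mmp28 at 24 h, Mmp17 and Mmp21 at 48 h, and Adamts2, Adamts14, Mmp3 and Mmp23 between them were lost (adjusted p 0.0505 to 0.103). The counts of alternatives kept include this block, although the losses listed at each gene leave it out. Levels under 1 CPM rest on about 20 counts or fewer per library, so small changes in such genes were not detectable at this depth.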
